A study of Mus musculus with 2 samples.

Results

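The expression of 10 imprinted growth genes was examined in single cells from TKO mouse lung tumors. The genes were *Igf2*, *Peg3*, *Mest*, *Snrpn*, *Ndn*, *Dlk1*, *Plagl1*, *H19*, *Meg3* and *Grb10*. They were chosen by name, with earlier results of these data known, and matched by symbol. All 10 were found among the 27998 genes counted in both libraries. TKO mice carry Rb-/-; Trp53-/-; Rbl2-/- alleles with a Rosa26 membrane-Tomato/membrane-GFP reporter on a mixed C57BL/6, 129/SVJ and 129/SvOla background. Recombination was started by Adeno-CMV-Cre given to the lung, and the tumors were taken 7 months later, when the mice were 8 to 9 months old. The CMV promoter is not restricted to a cell type, so Cre could act in any lung cell that took up the virus. The groups TKO1 and TKO2 are 1 tumor from each of 2 mice, with live cells sorted and 1 droplet library made for each tumor. Tumor, mouse and library therefore cannot be told apart, no p-value can be given, and every interval below is a 95% interval that covers counting error only.

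Imprinted genes are transcribed mainly from the copy inherited from a single parent, and many of them act on fetal growth. *Igf2*, *Peg3*, *Mest*, *Snrpn*, *Ndn*, *Dlk1* and *Plagl1* are expressed from the paternal copy, whereas *H19*, *Meg3* and, in most tissues, *Grb10* are expressed from the maternal copy. Most of these genes are highly expressed before birth and fall in many adult tissues, and small cell lung cancer, the disease these mice model, is a neuroendocrine tumor. The counts used here do not separate the parental copies.

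Several members are neighbors in the genome (GRCm38, GENCODE M21). *H19* lies on chromosome 7 from 142575529 to 142578143 on the minus strand, and *Igf2* lies 72.6 kb away on the same strand, from 142650766 to 142666816. *Dlk1* and *Meg3* lie on the plus strand of chromosome 12, from 109452823 to 109463336 and from 109541001 to 109571726, with 77.7 kb between them. *Snrpn* (chromosome 7, 59982495 to 60140219, minus strand) and *Ndn* (chromosome 7, 62346569 to 62350262, plus strand) belong to the same imprinted domain. The others lie apart, with *Peg3* on chromosome 7 from 6703892 to 6730431, *Mest* on chromosome 6 from 30723547 to 30748465, *Grb10* on chromosome 11 from 11930508 to 12038683 and *Plagl1* on chromosome 10 from 13060504 to 13131694. *Snrpn* overlaps *Snurf* on the same strand, so reads of this pair may have been split or left out in counting. *Igf2* overlaps *Igf2os* and *Mest* overlaps *Copg2* on the other strand.

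The 250 bases before the annotated start of *Dlk1*, *Meg3* and *Grb10* are shown as examples of members with the most UMIs in the same TKO2 tumor cluster, described below. That cluster also held the most UMIs of *Igf2*, *H19* and *Snrpn*, and for *Peg3* it tied with TKO2 cluster 4 at 27 UMIs. The windows of these further members are not shown. Those shown were read from RefSeq promoters (GRCm38.p6), which matched 9 of the 10 members. They are written 5′ to 3′ on the gene's strand with each CG pair in capitals. *Dlk1* is at chr12:109452573-109452822 (plus), *Meg3* at chr12:109540746-109540995 (plus) and the first of the *Grb10* starts at chr11:12037421-12037670 (minus).
Dlk1: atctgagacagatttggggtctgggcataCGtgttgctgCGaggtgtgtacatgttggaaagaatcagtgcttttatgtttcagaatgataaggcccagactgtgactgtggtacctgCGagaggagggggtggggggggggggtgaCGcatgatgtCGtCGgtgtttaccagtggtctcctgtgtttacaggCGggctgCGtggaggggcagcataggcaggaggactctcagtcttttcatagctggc
Meg3: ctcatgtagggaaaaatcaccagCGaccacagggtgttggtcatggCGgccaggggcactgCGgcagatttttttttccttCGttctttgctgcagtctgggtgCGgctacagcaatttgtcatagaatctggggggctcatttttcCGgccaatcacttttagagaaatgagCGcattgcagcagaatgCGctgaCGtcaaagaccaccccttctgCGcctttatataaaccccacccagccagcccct
Grb10: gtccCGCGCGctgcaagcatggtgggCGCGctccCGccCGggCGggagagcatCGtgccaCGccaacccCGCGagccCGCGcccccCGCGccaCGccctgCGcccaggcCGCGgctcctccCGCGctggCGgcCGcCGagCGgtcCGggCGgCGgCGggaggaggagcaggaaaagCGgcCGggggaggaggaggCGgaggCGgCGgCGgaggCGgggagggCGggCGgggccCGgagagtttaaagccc
The *Grb10* window held 40 CG pairs, a number reached by 1.31% of 32851 promoter windows of this length. The *Meg3* window held 10 and the *Dlk1* window 8, against a median of 6 over all windows. Both *Meg3* and *Grb10* have a second listed start, whose windows held 0 and 8 CG pairs. The letters TGCCGC, the core sequence bound by the imprint regulator ZFP57, were found on either strand of the *Meg3* window and of 8.68% of all windows, and were not found in the *Dlk1* and *Grb10* windows or at the second *Meg3* start.

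Only barcodes with more than 500 detected genes and under 10% mitochondrial UMIs (unique molecular identifiers, one per counted transcript) were kept. TKO1 then had 3193 cells of 4514 barcodes, with a median of 1223 UMIs, and TKO2 had 3568 of 3816, with a median of 1960. Clusters gave 2990 tumor cells, 98 macrophage-like cells and 105 club-like cells in TKO1, and 3380 tumor cells, 121 macrophage-like cells and 67 cells that stayed unnamed in TKO2. The unnamed cells had 8 club, 6 ciliated and 5 neuroendocrine markers raised and were led by the club genes *Scgb1a1*, *Scgb3a2* and *Scgb3a1*, with summed levels of 62810 CPM for club, 8340 CPM for neuroendocrine and 394.4 CPM for ciliated markers. They were left unnamed because neuroendocrine markers were raised with those of another type, and no other cluster of TKO2 had as many as 3 club markers raised. The tumor cells of the libraries differed in the markers used to name them, since the summed level of 18 neuroendocrine genes was 10160 to 32320 CPM (UMIs per 1000000 UMIs of the cells summed) over TKO1 tumor clusters and 1423 to 2928 CPM over those of TKO2. The libraries shared 22 barcodes, 11 of them among the cells kept. Scrublet called 0 doublets in each library, too few to be relied on for so many cells, and no doublets were removed.

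Most members differed widely between the tumors. *Igf2* and *Peg3* were at least 4-fold higher in tumor cells of TKO1, *Ndn*, *Grb10*, *H19*, *Meg3*, *Dlk1* and *Plagl1* were at least 4-fold higher in TKO2, and *Mest* and *Snrpn* differed by less than 4-fold. The count of 2 of 10 members higher in TKO1 stood beside 14.5% of 12925 genes with at least 10 UMIs, and the count of 6 of 10 higher in TKO2 stood beside 4.83% of them. The median log2 ratio (TKO1 over TKO2) was -3.26 over the members and 0.37 over all genes. The members were chosen with earlier results of these data known, so these values describe the chosen genes and not imprinted genes as a whole. Relative to that median of all genes, the log2 ratio of *Mest* was 0.49 and that of *Snrpn* -1.54, so neither changed direction. In bulk sums such as these, fewer expressing cells and less RNA per cell cannot be told apart. The share of cells with a UMI is given as well, but it cannot separate them where holding cells have few UMIs each.

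*Igf2*, the fetal insulin-like growth factor, had 414 UMIs in TKO1 tumor cells and 10 in TKO2. Its level was 97.9 CPM (88.7 to 107.8) in TKO1 and 1.29 CPM (0.618 to 2.37) in TKO2, a log2 ratio of 6.25 (5.35 to 7.32). It was detected in 10.9% of TKO1 tumor cells and 0.207% of TKO2 tumor cells. At a fixed depth of 1000 UMIs per cell, which left out 840 and 361 shallower cells, the shares were 8.09% (6.98 to 9.33) of 2150 cells and 0.133% (0.0361 to 0.339) of 3019 cells. *Peg3*, a zinc finger gene, had 472 and 160 UMIs, or 111.7 CPM (101.8 to 122.2) and 20.6 CPM (17.6 to 24.1), a log2 ratio of 2.44 (2.18 to 2.71). At fixed depth it was found in 9.77% of TKO1 and 2.09% of TKO2 tumor cells.

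*Ndn*, which encodes the MAGE family protein necdin, had the ratio farthest from 0 among members with a UMI in both tumors. It had 8 UMIs in TKO1 and 1587 in TKO2, or 1.89 CPM (0.817 to 3.73) and 204.6 CPM (194.6 to 214.9), a log2 ratio of -6.76 (-7.97 to -5.77). At fixed depth 16.1% (14.8 to 17.5) of TKO2 tumor cells held *Ndn*, against 1 cell of 2150 in TKO1. *Grb10*, an adaptor that restrains insulin and IGF receptor signaling, had 4 and 97 UMIs, with 0.946 CPM in TKO1, 12.5 CPM in TKO2 and a log2 ratio of -3.72 (-5.63 to -2.32).

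*H19*, *Meg3*, *Dlk1* and *Plagl1* were not detected in TKO1 tumor cells, where 0 of 2990 cells held any of them. With 3 cells as the limit for a 0, this allows a share of up to 0.1% of cells with a UMI, and it does not limit the share of cells expressing these genes. In TKO2 the noncoding RNA *H19* had 63 UMIs in 39 cells, the noncoding RNA *Meg3* had 146 UMIs in 39 cells, the Notch ligand-like gene *Dlk1* had 47 UMIs in 18 cells and the zinc finger gene *Plagl1* had 59 UMIs in 53 cells. With 3 UMIs taken as the limit for the 0 in TKO1, *Meg3* was at least 26.5-fold higher in TKO2, *H19* at least 11.4-fold, *Plagl1* at least 10.7-fold and *Dlk1* at least 8.54-fold. Over all barcodes with more than 1000 genes the bounds came closer, with log2 ratios (TKO1 over TKO2) of -3.19, -2.41, -2.19 and -1.90. The bound of *Dlk1* then no longer reached 4-fold, which does not show that its difference was under 4-fold. Their levels were carried differently by the cells. A cell with *Meg3* held 3.74 UMIs of it on average and up to 15, and a cell with *Dlk1* held 2.61 and up to 12, whereas a cell with *Plagl1* held 1.11 and up to 3.

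*Snrpn*, which encodes a spliceosomal protein common in neurons, and *Mest*, which encodes a membrane protein with a hydrolase fold, were found in both tumors. *Snrpn* had 305 UMIs (72.2 CPM) in TKO1 and 1262 UMIs (162.7 CPM) in TKO2, a log2 ratio of -1.17 (-1.36 to -0.99), and was held by 6.79% and 14.3% of tumor cells at fixed depth. *Mest* had 110 UMIs (26.0 CPM) and 111 UMIs (14.3 CPM), a log2 ratio of 0.86 (0.47 to 1.26), and shares of 2.05% and 1.59%.

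**Figure D1:**
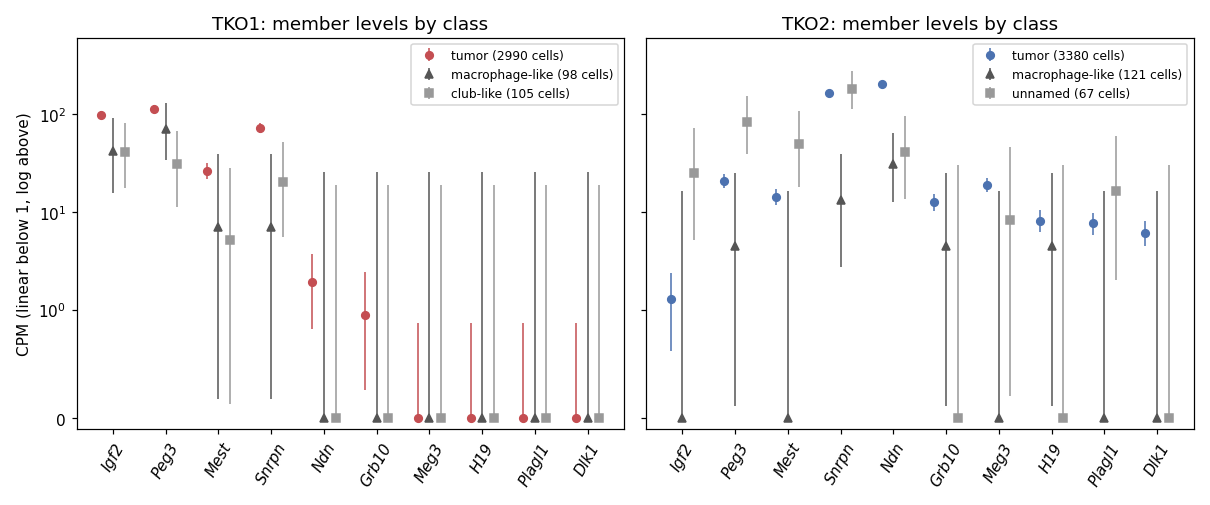
Level of each member in CPM (vertical axis, linear below 1 and logarithmic above) in the cell classes of TKO1 (left) and TKO2 (right). Points are levels over all cells of a class and bars are 95% exact Poisson intervals. *Igf2* stands at 97.9 CPM in TKO1 and 1.29 CPM in TKO2 tumor cells, and *Ndn* at 1.89 and 204.6 CPM.

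Of 32 further imprinted genes listed, 30 were in the gene table and 21 could be compared. Of these, 1 was at least 4-fold higher in TKO1 (beside 14.5% of all genes), 4 in TKO2 (beside 4.83%) and 16 were not called. Among those not called, *Asb4* had 0 UMIs in TKO1 and 19 in TKO2, and its bound of 3.45-fold does not show a difference under 4-fold. Their median log2 ratio was -0.04. *Magel2*, *Mkrn3* and *Peg12*, paternally expressed neighbors of *Ndn*, had 0, 1 and 0 UMIs in TKO1 and 51, 57 and 36 in TKO2. *Mkrn3* had a log2 ratio of -4.96 (-10.29 to -2.42). With the 0 in TKO1 set at 3 UMIs, *Magel2* and *Peg12* had bounds of 9.26-fold and 6.54-fold higher in TKO2. The intervals of their log2 ratios ended at -2.86 and -2.34. *Ube3a*, a ubiquitin ligase gene of the same domain, had 597 and 1392 UMIs and a log2 ratio of -0.35 (-0.49 to -0.21), so the genes of this domain were not all alike. *Nap1l5* had 5 and 279 UMIs, and the amino acid transporter gene *Slc38a4* had 16 and 0 UMIs.

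Beside *Peg3*, its neighbor *Usp29* had 95 and 52 UMIs and a log2 ratio of 1.75 (1.24 to 2.26). The maternally expressed cell cycle inhibitor *Cdkn1c*, which has its place near *Igf2* on chromosome 7, had 856 and 1468 UMIs with a log2 ratio of 0.10 (-0.03 to 0.22) that became -0.27 once the median of all genes was taken off, so its direction depends on the scaling. *Nnat*, a small neuronal membrane protein gene, was abundant in both tumors, at 1440 and 404.7 CPM. No UMI of *Rtl1*, *Dio3* or *Mirg*, which lie near *Dlk1* and *Meg3*, was counted in tumor cells of either library.

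**Figure D2:**
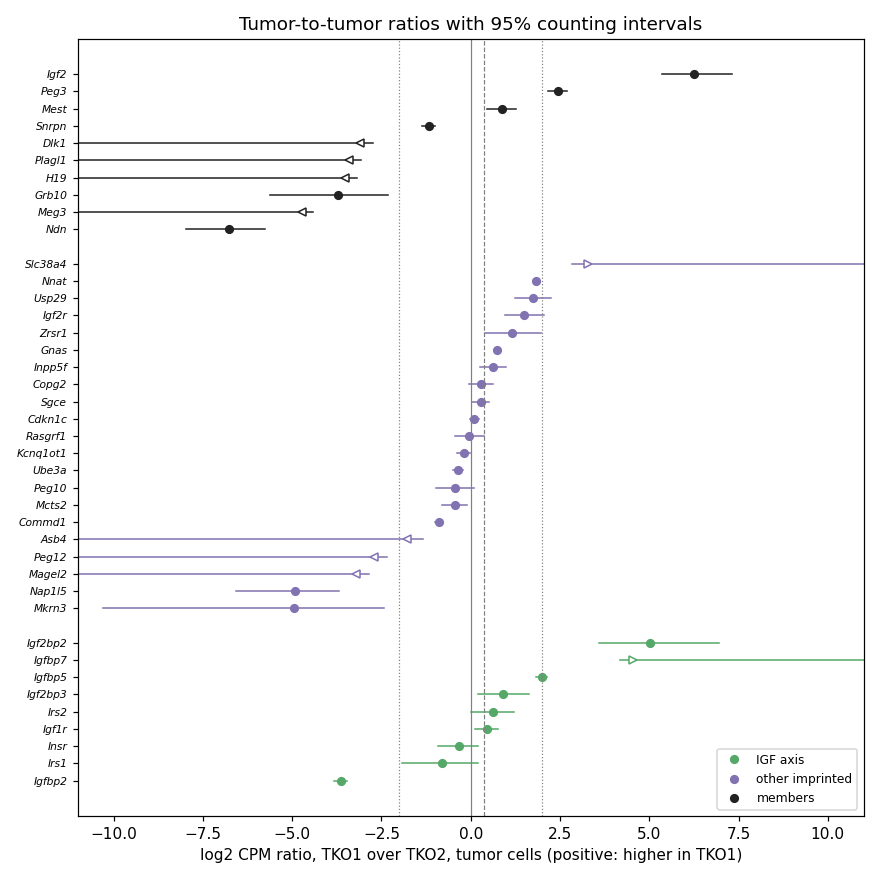
The log2 CPM ratio of TKO1 over TKO2 tumor cells (horizontal axis) for members, other imprinted genes and IGF axis genes with at least 10 UMIs, with 95% counting intervals. Open triangles are bounds for genes with 0 UMIs in a tumor, dotted lines mark 4-fold, and the dashed line is the median of all genes at 0.37. *Igf2* lies farthest to the right of the members and *Ndn* farthest to the left, and *Igf2r*, which belongs to both of the other lists, is drawn among the imprinted genes.

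Genes of the IGF axis, through which *Igf2* and *Grb10* act, were compared in the same way. Of 16 genes listed, 10 could be compared, and 2 were at least 4-fold higher in TKO1, 1 in TKO2 and 7 differed by less, beside the same 14.5% and 4.83% of all genes. The main receptor *Igf1r* had 140 and 188 UMIs and a log2 ratio of 0.45 (0.12 to 0.77), which was 0.08 once the median of all genes was taken off, and *Igf2r*, which clears IGF2 from the cell surface and is itself imprinted, had 74 and 48 UMIs, a log2 ratio of 1.501 (0.96 to 2.06). The binding protein gene *Igfbp2* had 234 UMIs in TKO1 and 5378 in TKO2, a log2 ratio of -3.65 (-3.84 to -3.46). *Igfbp5* went the other way, with 997 and 463 UMIs and a log2 ratio of 1.98 (1.82 to 2.15). *Igf2bp2*, which encodes an RNA-binding protein of *Igf2* transcripts, had 71 and 4 UMIs, and *Igfbp7* had 38 and 0. The ligand gene *Igf1* had 2 UMIs in each tumor.

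The members were next compared between tumor cells and the other cells of the same library. In TKO1, 4 members could be compared with macrophage-like cells, and *Snrpn* alone was at least 4-fold higher in tumor cells, beside 8.57% of 9398 genes. *Snrpn* had 1 UMI in macrophage-like cells, a log2 ratio (tumor over macrophage-like) of 3.37 (0.88 to 8.68). *Igf2* was at 97.9 CPM in tumor cells and 41.9 CPM (15.4 to 91.3, 6 UMIs) in macrophage-like cells, a log2 ratio of 1.22 (0.09 to 2.68). *Peg3* was at 111.7 and 69.9 CPM (33.5 to 128.6, 10 UMIs), a log2 ratio of 0.68 (-0.22 to 1.75). At fixed depth *Igf2* was held by 2.44% (0.297 to 8.53) and *Peg3* by 7.32% (2.73 to 15.2) of 82 macrophage-like cells, and both intervals overlap those of tumor cells. Unthinned, the share of macrophage-like cells with *Igf2* was 6.12% at a median depth of 1314 UMIs, against 10.9% of tumor cells at a median of 1212. RNA that has leaked from other cells is counted in such droplets, and its part in these values was not tested.

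Against the 105 club-like cells of TKO1, *Mest* alone of 4 members was at least 4-fold higher in tumor cells, beside 6.95% of 9969 genes, and this call rests on 1 UMI in club-like cells, with a log2 ratio of 2.36 (-0.15 to 7.67). *Igf2* was at 40.7 CPM (8 UMIs), *Peg3* at 30.5 CPM (6 UMIs) and *Snrpn* at 20.3 CPM (4 UMIs) in club-like cells, with log2 ratios (tumor over club-like) of 1.27 (0.28 to 2.49), 1.87 (0.74 to 3.33) and 1.83 (0.46 to 3.71). The club-like cluster also had 5 alveolar type 2 and 3 alveolar type 1 markers raised, and whether it held other epithelial cells was not tested. The macrophage-like cluster had 4 endothelial, 4 T cell, 4 B cell and 5 neutrophil markers raised in TKO1, and 4 T cell, 4 B cell and 4 neutrophil markers raised in TKO2.

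In TKO2, *Ndn*, *Snrpn* and *Peg3* were at least 4-fold higher in tumor cells than in macrophage-like cells, 3 of 7 members that could be compared, beside 5.55% of 9890 genes. *Ndn* was at 204.6 CPM in tumor cells and 31.1 CPM (7 UMIs) in macrophage-like cells, a log2 ratio of 2.72 (1.67 to 4.04). *Snrpn* was at 162.7 and 13.3 CPM (3 UMIs), a log2 ratio of 3.61 (2.06 to 5.89), and *Peg3*, with 1 UMI in macrophage-like cells, had a log2 ratio of 2.22 (-0.28 to 7.53). *Meg3*, *Mest* and *Plagl1* had 0 UMIs in the 121 macrophage-like cells, where 3 UMIs would amount to 13.3 CPM, so only large differences were detectable there.

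The 67 unnamed cells of TKO2 had a different profile from the tumor cells around them. *Igf2* had 3 UMIs there, or 24.7 CPM (5.08 to 72.04), against 1.29 CPM in tumor cells, a log2 ratio (tumor over unnamed) of -4.26 (-6.22 to -1.76). *Peg3* was at 82.2 CPM (39.4 to 151.1) and *Mest* at 49.3 CPM (18.1 to 107.3) in the unnamed cells, both above the tumor cells, with log2 ratios of -1.99 (-2.91 to -0.91) and -1.78 (-2.95 to -0.31). *Ndn* was lower there, at 41.1 CPM (13.3 to 95.9), and *Snrpn* was close, at 180.8 CPM (113.3 to 273.7). Of 8 fibroblast markers, 7 were at 0 in these cells and their summed level of 386.2 CPM came from *Dcn*.

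Within TKO2, several members were held unevenly among tumor cells. Cluster 6, with 309 cells or 9.14% of tumor cells, held 60 of 63 *H19* UMIs, 127 of 146 *Meg3* UMIs, 29 of 47 *Dlk1* UMIs, 46 of 97 *Grb10* UMIs and all 10 *Igf2* UMIs. The level of *Meg3* was 144.8 CPM (120.7 to 172.3) in cluster 6 and at most 6.64 CPM in the other tumor clusters, and that of *H19* was 68.4 CPM (52.2 to 88.1) against at most 1.51 CPM. *Dlk1* was at 33.1 CPM (22.2 to 47.5) in cluster 6, with a further 15.9 CPM (9.08 to 25.8) in cluster 1, where its 16 UMIs came from 4 cells. *Igf2* was thus present in TKO2 at 11.4 CPM (5.47 to 20.97) in this cluster and at 0 UMIs in the other tumor clusters.

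These members were among the variable genes that formed the clusters, so part of this pattern is built into the clustering, and it is given as a description. When members and other imprinted genes were left out of the clustering, clusters 7 and 8, chosen after their values were seen, held 301 cells, of which 295 were from cluster 6. Together they held 87.3% of *H19*, 87.0% of *Meg3*, 48.9% of *Dlk1*, 45.8% of *Grb10* and 100% of *Igf2* UMIs in 8.91% of tumor cells. Summed ciliated and endothelial levels were highest in cluster 6 among the TKO2 tumor clusters, and the summed fibroblast level was not. Its summed ciliated level was 119.7 CPM (105 UMIs), against 4.53 to 24.4 CPM in the other TKO2 tumor clusters, with *Dynlrb2*, *Cfap126*, *Ccdc153* and *Tmem212* at 0 among its 7 markers. Its summed fibroblast level was 9.12 CPM, against 1.86 to 9.29 CPM in the other TKO2 tumor clusters, with *Col1a1*, *Col3a1*, *Lum* and *Pdgfra* at 0. Its summed endothelial level was 176.8 CPM, against 51.8 to 108.0 CPM in the other TKO2 tumor clusters, with *Cdh5*, *Cldn5* and *Kdr* at 0. Only 1 ciliated and 1 endothelial marker were raised 4-fold in cluster 6. The part of ciliated and endothelial markers in the member pattern was not tested.

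*Mest* and *Plagl1* were highest elsewhere in TKO2. *Mest* reached 37.2 CPM (26.6 to 50.7) in cluster 0 and *Plagl1* 26.7 CPM (16.9 to 40.1) in cluster 2, against 11.4 and 2.28 CPM in cluster 6. *Ndn* ranged from 110.9 to 293.1 CPM and *Snrpn* from 138.4 to 225.8 CPM over the 8 tumor clusters, with the highest level of both in cluster 6. Neither was absent from any tumor cluster.

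In TKO1, *Igf2* ranged from 26.2 to 244.3 CPM over the 7 tumor clusters. It was highest in cluster 6 (244.3 CPM, 194.6 to 302.9) and cluster 3 (229.9 CPM, 188.8 to 277.4), whose intervals overlap, and lowest in clusters 1 and 2 (36.1 and 26.2 CPM). *Mest* was also highest in cluster 6, at 117.7 CPM (84.1 to 160.3), and *Peg3* and *Snrpn* were highest in cluster 3, at 170.9 CPM (135.7 to 212.4) and 118.1 CPM (89.2 to 153.4). The summed fibroblast level was 92.8 CPM in cluster 3 and 44.1 CPM in cluster 6 and at most 8.14 CPM in the other TKO1 tumor clusters. Of its 8 markers, 6 were at 0 in cluster 3, *Col1a1*, *Col3a1* and *Pdgfra* among them, and 7 were at 0 in cluster 6.

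**Figure D3:**
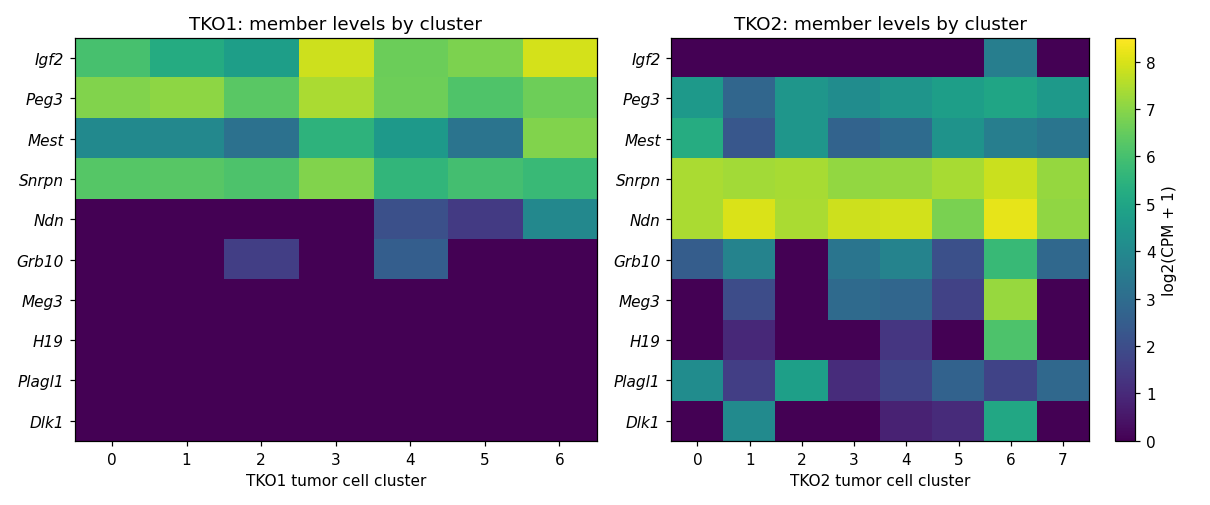
Level of each member as log2(CPM + 1), shown by color, in the tumor cell clusters of TKO1 (left) and TKO2 (right). *Meg3* and *H19* are brightest in TKO2 cluster 6, at 144.8 and 68.4 CPM, and *Igf2* is brightest in TKO1 clusters 3 and 6.

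Over the 15 tumor clusters of both libraries, the genes whose log2(CPM + 10) levels correlated most with a member were sought for the 5 members with at least 200 UMIs, among 6570 genes. They included *Shox2*, *Dctd* and *Mthfd2l* for *Ndn* (Pearson r 0.99 for the first), *Tgfb1* and *Ifi27l2a* for *Igf2* (0.96), *Hacd2* and *Ankrd12* for *Peg3* (0.98), *Syt4*, *Arl2* and *Tacc2* for *Snrpn* (0.95) and *Fam98a*, *Syt7* and *Sfrp5* for *Mest* (0.87). The clusters of a tumor share its library, so values over both tumors also hold the difference between them. Within the 7 clusters of TKO1 and the 8 of TKO2, r was 0.65 and 0.88 for *Ndn* with *Shox2*, 0.79 and 0.72 for *Igf2* with *Tgfb1*, 0.81 and 0.87 for *Peg3* with *Hacd2*, 0.80 and 0.65 for *Snrpn* with *Syt4* and 0.85 and 0.89 for *Mest* with *Fam98a*. The second gene of *Igf2*, *Ifi27l2a*, had an r of 0.84 in TKO1 and -0.24 in TKO2. For the other genes named, r within TKO2 was 0.42 (*Dctd*) and 0.93 (*Mthfd2l*) with *Ndn* and 0.72 (*Ankrd12*) with *Peg3*. It was 0.40 (*Arl2*) and 0.49 (*Tacc2*) with *Snrpn*, and 0.82 (*Syt7*) and 0.85 (*Sfrp5*) with *Mest*. Within TKO1 the r of these genes was 0.69 to 0.95. *Ndn* had 8 UMIs in TKO1 tumor cells, with 4 of the 7 clusters at 0. *Igf2* had 10 UMIs in TKO2 tumor cells, with 7 of the 8 clusters at 0. The r of *Ndn* within TKO1 and of *Igf2* within TKO2 therefore rest on few counts. The genes were also picked for their r over these same clusters, so the values within a tumor are no separate check.

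Members were seldom found in the same cell. At fixed depth, 75.7% (73.8 to 77.5) of TKO1 tumor cells held no member, 21.9% held 1, 2.14% held 2 and 0.186% held 3. In TKO2 the shares were 66.8% (65.1 to 68.5), 28.5%, 4.54% and 0.199%. These shares depend on the depth chosen, since most transcripts of a cell are not counted.

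Among pairs of members that were each found in at least 20 cells, 6 in TKO1 and 28 in TKO2, the number of cells holding both was compared with the product of the shares. *Ndn* and *Snrpn*, which share a domain and were the members found in most TKO2 cells, were held together by 66 cells, against 69.5 from the product. *Snrpn* was found in 13.6% of cells with *Ndn* and 14.5% of cells without it. In TKO1, *Igf2* and *Peg3* were held together by 21 cells, against 17.0 from the product. *Igf2* and *Mest*, both highest in TKO1 cluster 6, were held together by 9 cells against 3.56, the only TKO1 pair at least 2 times the product. A pair was counted as having intervals apart where they were apart in either direction, and this was the only such pair in either tumor. *Igf2* was found in 20.5% (9.80 to 35.3) of cells with *Mest* and 7.83% (6.72 to 9.07) of cells without it. In the other direction the intervals overlapped, with *Mest* in 5.17% (2.392 to 9.592) of cells with *Igf2* and 1.77% (1.237 to 2.455) of cells without it. With another random draw of the same depth the pair was held by 7 cells against 3.59. With thinning to 2000 UMIs it was held by 4 against 3.21, and without thinning by 16 against 8.83, and the intervals overlapped under each of these settings.

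In TKO2, 6 of the 28 pairs reached at least 2 times the product and 9 were at 0.5 times the product or less, but 0 pairs had intervals that lay apart. The pairs at 2 times all had a product under 1 cell and rested on 1 or 2 cells. Those at 0.5 times or less were held together by 0 cells, except *Meg3* and *Snrpn*, with 1 cell against 3.29. Where the product is under 1 cell, 0 cells must count as low and 1 cell can count as high, so these counts say little. *H19* and *Meg3* had the highest ratio, 5.71, which rested on 1 cell. The number at 2 times the product was 1 with another random draw, so it was not stable at this depth. Without thinning, 9 TKO2 pairs had intervals apart. There *H19* and *Meg3* were held together by 5 cells, against 0.45 from the product, and *Meg3* was found in 12.8% (4.30 to 27.4) of cells with *H19* and 1.02% (0.706 to 1.42) of cells without it. *Meg3* and *Dlk1*, chosen after their values were seen, were held together by 4 cells, against 0.208. Unthinned, *Ndn* and *Snrpn* were held together by 322 cells, against 264.2. Unthinned cells differ in depth, and its part in these pairs was not tested. The product over all tumor cells also takes no account of clusters. Cluster 6, with 309 cells, had 36 of the 39 cells with *H19*, 25 of the 39 with *Meg3* and 12 of the 18 with *Dlk1*. How far sharing a cluster accounts for the pairs of these genes was not tested.

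**Figure D4:**
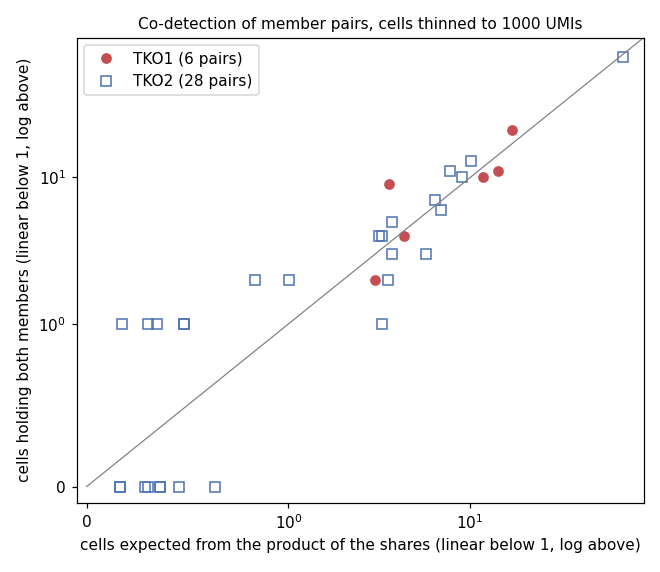
Number of tumor cells holding both members of a pair (vertical axis) against the number given by the product of their shares (horizontal axis), both linear below 1 and logarithmic above, at 1000 UMIs per cell. The line marks equal numbers. *Ndn* and *Snrpn* lie at the upper right, at 66 against 69.5 cells, and most pairs away from the line rest on few cells.

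The cells of TKO2 with *H19*, *Meg3* or *Dlk1* were then counted together, a set formed after the values were seen. At fixed depth there were 53 such cells, of which 49 held a single member of the set and 4 held a pair, while 0 held all 3 genes. Cluster 6 had 41 of the 53, or 14.4% (10.5 to 19.01) of its 285 cells, and the next highest share was 1.1% (0.359 to 2.56) in cluster 1. The genes of the set were already known to be highest in cluster 6 and were among the variable genes that formed it. Its high share was therefore fixed by these choices and is given as a description only. Before thinning the 53 cells had a median of 2133 UMIs and the remaining cells 2106, and their median Scrublet scores were 0.0596 and 0.0659. *Peg3* was found in 7.55% (2.10 to 18.2) of the 53 cells and 1.99% (1.52 to 2.56) of the rest, and *Ndn* in 17.0% (8.07 to 29.8) and 16.1% (14.8 to 17.4), with intervals that overlap.

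**Figure D5:**
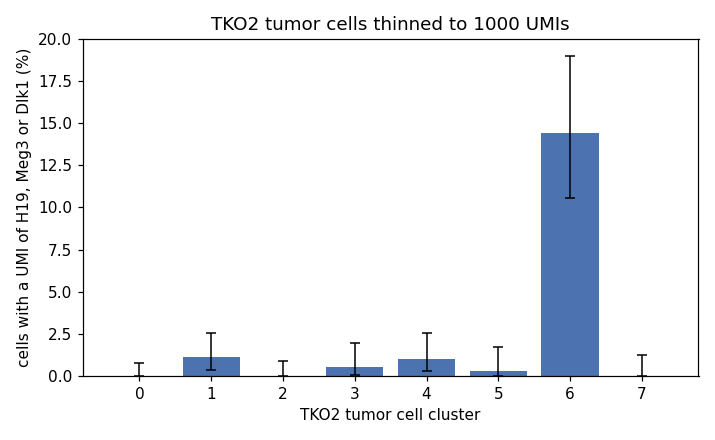
Share of TKO2 tumor cells, thinned to 1000 UMIs, with a UMI of *H19*, *Meg3* or *Dlk1* (vertical axis, percent) in each tumor cell cluster (horizontal axis). Bars are shares and lines are 95% exact binomial intervals. Cluster 6 stands at 14.4% and cluster 1 at 1.1%, but these genes were grouped after their high levels in cluster 6 were seen.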

How the data were processed

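Single cells of 2 TKO lung tumors, 1 library each, were measured by droplet RNA sequencing. The deposited files hold raw UMI counts per gene and barcode, not normalized, and per the labels the authors' processing used Cell Ranger, Seurat and the mm10 genome, with versions not given in the sources used here. Total UMI counts were 5285038 in TKO1 and 8291430 in TKO2. Barcodes with more than 500 detected genes and under 10% mitochondrial UMIs were kept. The libraries were clustered separately (R 4.3.3, Seurat 5.3.0) from cells with under 10% mitochondrial UMIs, genes in at least 10 cells, 1000 variable genes, 10 principal components and a resolution of 0.8. A cluster was named from at least 3 markers of a type raised 4-fold. Tumor clusters were named by a looser rule, at least 3 neuroendocrine markers at least 2-fold higher than in macrophage-like cells. A cluster with both neuroendocrine markers and those of another type raised 4-fold was left unnamed. UMIs were summed per class and scaled to 1000000 UMIs.

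Intervals are exact (Poisson for levels, Clopper-Pearson for shares, conditional binomial for ratios). With 1 library per tumor no test across samples was possible. A gene was compared where it had at least 10 UMIs in both classes together, and a call means at least 4-fold. A gene at 0 in a class was placed at 3 UMIs, and it was left out where that bound pointed toward the class at 0 or both classes had at most 3 UMIs. This last rule was set after first values were seen. It changed the comparisons between cell classes and no count between the tumors. For shares and co-detection, tumor cells were thinned to 1000 UMIs. How pairs of members were counted, by 2 times the product of the shares and by intervals that lay apart, was chosen after values were seen, and the second count was added because the first was not stable. The members, lists and markers were chosen with earlier results of these data known. Ratios and their intervals were tested on simulated Poisson counts for genes with at least 200 UMIs, and thinning on simulated cells. Genes with fewer UMIs, among them the members at 0 in TKO1, were not covered. Python 3 scripts used scipy, and scanpy ran Scrublet. Gene positions came from GENCODE M21 and promoter sequences from RefSeq, both on GRCm38, which is the mm10 build.

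The text names every member, genes of the lists of other imprinted genes and of the IGF axis, markers, and for members with at least 200 UMIs the 3 genes most correlated over tumor clusters, of which some are not reported here. Alternatives changed the scaling (edgeR 4.0.16 TMM factors), the gene and barcode filters, the fold, the clustering, the classes, the thinning and the Scrublet scores kept.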

Additional observations from a re-analysis of the deposited data

Results flagged for a closer look

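Barcodes that were not kept were outside every main comparison, and they also held members. These had at most 500 detected genes or did not have under 10% mitochondrial UMIs. Only an alternative run over all barcodes with more than 200 genes used a wider set. In 1321 such barcodes of TKO1 there were 67 UMIs of *Igf2*, 88 of *Peg3*, 14 of *Mest* and 52 of *Snrpn*. In 248 such barcodes of TKO2 there were 20 UMIs of *Ndn*, 6 of *Mest* and 19 of *Snrpn*. In CPM, *Igf2* was at 93.3 (72.3 to 118.4) in these TKO1 barcodes and 97.9 in tumor cells, and *Ndn* was at 107.4 (65.6 to 165.9) in these TKO2 barcodes and 204.6 in tumor cells. Whether these barcodes were shallow cells or droplets with free RNA was not tested.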

How the results depend on the processing

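The counts of 2 members higher in TKO1 and 6 higher in TKO2 stayed within 1.5 times of these values under every alternative run, and no value changed sign. With barcodes of more than 1000 genes the second count was 5, since the log2 bound of *Dlk1* fell from -3.09 to -1.90. The bounds of *Meg3*, *H19* and *Plagl1* went from -4.73, -3.52 and -3.42 to -3.19, -2.41 and -2.19. In TKO1, members at least 4-fold higher in tumor cells than in macrophage-like cells numbered 1, but 2 at resolution 0.4, where 905 tumor cells met the rule for ciliated-like cells and left the class, and 3 with a 2-fold call. Against club-like cells the number was 1, and 4 with a 2-fold call. Counts of pairs of members were not stable. In TKO1, pairs at least 2 times the product of their shares numbered 1, but 0 with thinning to 2000 UMIs, with no thinning and with another random draw, and pairs with intervals apart numbered 1, but 0 under these settings and without the highest Scrublet scores. In TKO2, pairs at least 2 times the product numbered 6, but 2 with thinning to 2000 UMIs, 1 with another random draw and 1 without the highest Scrublet scores. In TKO2, pairs with intervals apart numbered 0, but 1 with thinning to 2000 UMIs, 9 with no thinning and 1 without the highest Scrublet scores. The cause was not tested. No replicate could be left out and no paired analysis was possible because each tumor has 1 library. Depth limited co-detection, since at 1000 UMIs 23 cells held *Meg3*, and it limited comparisons with the small classes, where 3 UMIs amount to 13.3 CPM in TKO2 macrophage-like cells.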
